A study of Homo sapiens with 4 samples.

Results

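The genes described here are 9 chains of collagens and laminins, COL1A1, COL4A1, COL4A2, COL5A1, COL6A1, COL6A2, LAMB1, LAMC1 and LAMB3, which were taken by symbol from the 36601 genes listed in the deposited single-cell count tables. BEAS-2B cells, an immortalized human line from the bronchial epithelium, were exposed to gamma rays of a Cs-137 source, and single-cell 3' libraries were made from cells taken 30 min later. There were 4 libraries, 1 each for cells without radiation (control) and for cells given 10 mGy, 100 mGy or 1 Gy, all from the same line with no other agent. With 1 library per dose, dose and library cannot be told apart, no test between doses was made, and every interval given below is a 95% interval for counting error only.

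Collagens are built from chains that wind around each other in threes inside the endoplasmic reticulum, and laminins are cross-shaped trimers of 1 alpha, 1 beta and 1 gamma chain. Type IV collagen and laminin each form a network, and the networks together make the basement membrane, the sheet on which airway epithelium sits. Epithelial cells bind this sheet through integrins and also secrete part of it themselves.

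Of the 9 genes, COL4A1 and COL4A2 (the chains of the common type IV collagen) and LAMB1, LAMC1 and LAMB3 (the beta-1, gamma-1 and beta-3 chains of laminin) belong to the basement membrane proper. COL1A1 and COL5A1 encode chains of the fibrillar collagens of types I and V, and COL6A1 and COL6A2 encode chains of the microfibrillar type VI collagen, so the name basement membrane covers these 4 genes only loosely. A level is given in CPM, which is the number of unique molecular identifiers (UMIs) of a gene, summed over every deposited barcode of a library, per 1000000 UMIs of that library. All 9 genes reached the floor used here, 10 CPM on average, as did 8507 of all genes.

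The positions below come from RefSeq on GRCh38.p14 and not from the deposited files. COL4A1 (ENSG00000187498) lies at chr13:110148963-110307157 and COL4A2 (ENSG00000134871) at chr13:110307284-110513209, head to head. COL1A1 (ENSG00000108821) spans chr17:50184101-50201631 and COL5A1 (ENSG00000130635) spans chr9:134641803-134844843. The type VI genes share a chromosome, with COL6A1 (ENSG00000142156) at chr21:45981770-46005048 and COL6A2 (ENSG00000142173) at chr21:46098112-46132848. Among the laminin genes, LAMB1 (ENSG00000091136) is found at chr7:107923799-108003161, LAMC1 (ENSG00000135862) at chr1:183023420-183145592 and LAMB3 (ENSG00000196878) at chr1:209614870-209652425.

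Promoter windows from RefSeq were held for 7 of the 9 genes, and COL1A1 and COL6A1 are named only. The starts of COL4A1 and COL4A2 are separated by 126 bases, and these bases are shown first because both genes are read outward from them. The 250 bases before the starts of LAMB1 and LAMC1 follow, since these laminin chains had nearly the same ratios in the low-dose libraries, and those of LAMB3, the gene with the lowest ratios. For LAMB3 the most upstream of its 3 listed starts was used. Capitals mark, on either strand, the GC box GGGCGG, the CCAAT box CCAAT, the AP-1 motif TGANTCA and the TATA box TATAAA. Each run is written 5' to 3', on the strand of COL4A2 (plus) for the first and on the gene's own strand for the others.
COL4A1-COL4A2, chr13:110307158-110307283, plus strand: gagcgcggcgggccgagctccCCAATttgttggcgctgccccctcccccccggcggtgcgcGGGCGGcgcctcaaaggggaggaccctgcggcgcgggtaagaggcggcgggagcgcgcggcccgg
LAMB1, chr7:108003162-108003411, minus strand: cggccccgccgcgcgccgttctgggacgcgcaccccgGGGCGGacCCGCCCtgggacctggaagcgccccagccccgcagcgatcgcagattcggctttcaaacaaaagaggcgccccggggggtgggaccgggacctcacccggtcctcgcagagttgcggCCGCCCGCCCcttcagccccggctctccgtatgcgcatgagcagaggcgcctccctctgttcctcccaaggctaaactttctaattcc
LAMC1, chr1:183023170-183023419, plus strand: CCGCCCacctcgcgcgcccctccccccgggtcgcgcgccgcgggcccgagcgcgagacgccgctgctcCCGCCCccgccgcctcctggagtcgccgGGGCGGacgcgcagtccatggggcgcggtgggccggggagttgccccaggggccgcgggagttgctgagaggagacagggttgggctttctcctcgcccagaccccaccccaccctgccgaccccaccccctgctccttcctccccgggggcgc
LAMB3, chr1:209652426-209652675, minus strand: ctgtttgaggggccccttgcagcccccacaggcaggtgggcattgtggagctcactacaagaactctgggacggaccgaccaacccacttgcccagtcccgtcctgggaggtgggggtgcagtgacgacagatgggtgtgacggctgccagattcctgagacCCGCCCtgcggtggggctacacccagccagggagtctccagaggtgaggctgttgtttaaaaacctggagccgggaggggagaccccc

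The interval between the type IV genes was rich in G and C (80.2%) and held 1 GC box and 1 CCAAT box. The 250 bases before LAMB1 held 4 GC boxes, of which the last 2 overlap, and those before LAMC1 held 3. The LAMB3 window held 1 GC box. Of the windows not shown, COL5A1 had 2 GC boxes before each of its 2 starts, the most downstream LAMB3 start had 1 GC box, 1 CCAAT box and 1 AP-1 motif, and COL6A2 had 4 GC boxes and 1 TATA box. No letters matching the AP-1 motif or the TATA box were in the 4 stretches shown. Over all 35116 windows, searched in the 250 bases before the start, 42.6% held a GC box, 32.0% a CCAAT box, 6.57% the AP-1 motif and 10.7% a TATA box, and the median GC content was 58.0%. These matches describe letters and do not show that a factor was bound.

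The libraries differed in ways that touch every value below. They held 11111 to 21514 barcodes and 211752280 to 285806026 UMIs, with a median of 12417 to 19771 UMIs per barcode. Barcodes with fewer UMIs than the median of their library divided by 3, called low-UMI barcodes, came to 19.6%, 41.4%, 27.4% and 25.4% of barcodes in the control, 10 mGy, 100 mGy and 1 Gy libraries but held only 2.16% to 5.40% of the UMIs. Ribosomal protein genes took 13.9%, 19.97%, 21.8% and 13.997% of the UMIs in the same order, and mitochondrially encoded genes took 5.91%, 4.55%, 4.40% and 5.78%. Between any pair of libraries 76 to 134 barcode sequences were shared. The part of these differences in the results was not tested.

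Across the 9 genes, the 10 mGy and 100 mGy libraries were lower than both the control and the 1 Gy library, and the same order held for 67.6% of all genes tested. At 10 mGy, 9 of 9 members were at least 1.2-fold lower than the control and 0 were higher, beside 53.0% of all genes lower and 15.4% higher. At 100 mGy the members again counted 9 lower and 0 higher, beside 58.9% and 14.0% of all genes. At 1 Gy 0 members passed that fold in either direction, where 0.846% of all genes were lower and 1.28% higher. These 3 comparisons share the control library. The count of members is read against these shares, which rest on scaling by total UMIs. The 9 members were chosen with earlier results of these data known, so their count is a description and not a test. When libraries were scaled by the median of gene ratios, 27.3% of all genes were lower and 30.6% higher at 10 mGy, and 29.01% lower and 31.8% higher at 100 mGy, while 8 of 9 members were lower at each of these doses. For 10 mGy, 100 mGy and 1 Gy, the members had median log2 ratios of -0.88, -0.95 and -0.01, and all genes had medians of -0.30, -0.38 and 0.02.

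**Figure D1:**
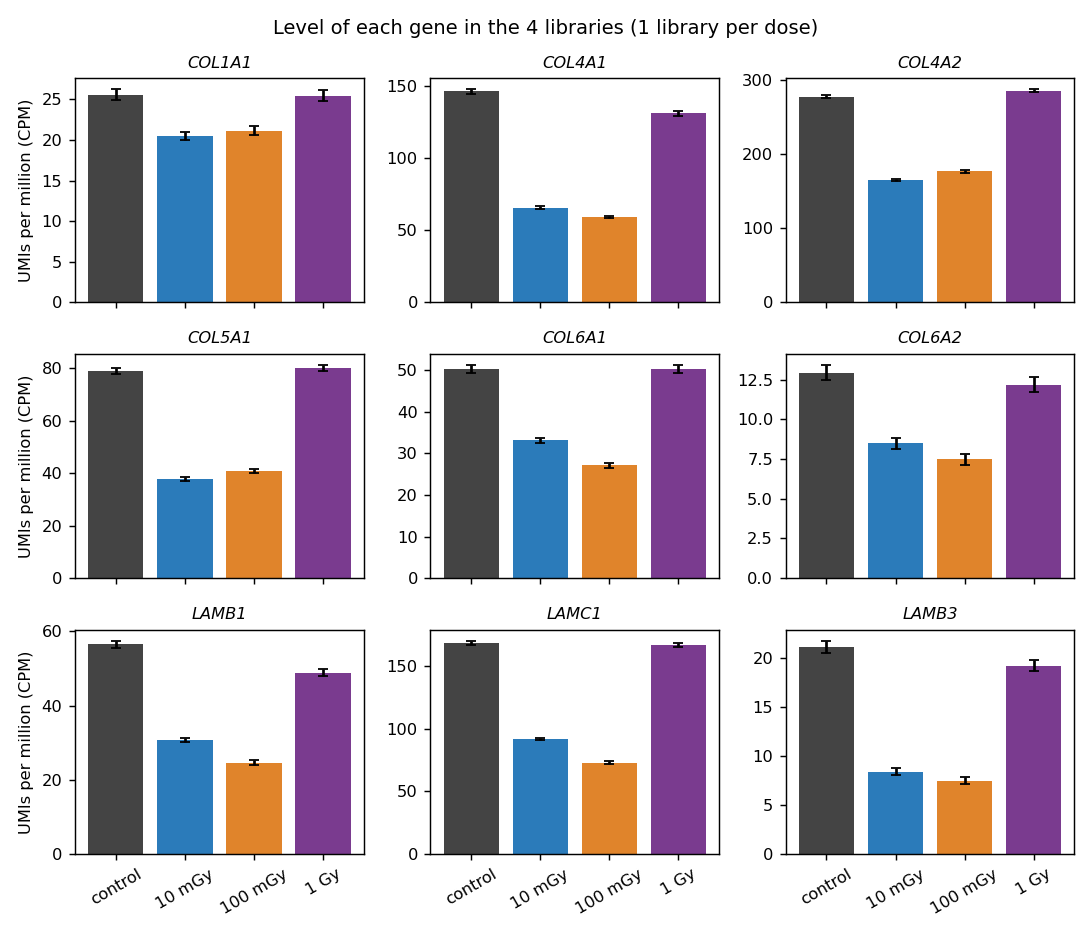
Level of each gene in CPM (vertical axes, from 0) in the 4 libraries (horizontal axes), with 95% Poisson counting intervals as error bars and 1 library per bar. In every panel the bars of 10 mGy and 100 mGy stand below those of the control and of 1 Gy, least so for COL1A1.

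Type IV collagen makes the covalently linked network of the basement membrane, in trimers of 2 alpha-1 chains (COL4A1) and 1 alpha-2 chain (COL4A2). COL4A1 had 146 CPM in the control, 65.7 CPM at 10 mGy, 59.3 CPM at 100 mGy and 131 CPM at 1 Gy. Relative to the control, the 10 mGy library had 0.449 of the level (0.441 to 0.457) and the 100 mGy library 0.405 (0.397 to 0.413). The 1 Gy library was only slightly lower, at 0.896 (0.882 to 0.911). COL4A2 was at 277, 165, 176 and 285 CPM in the same order of libraries. Its ratios to the control were 0.596 (0.589 to 0.603), 0.637 (0.629 to 0.645) and 1.03 (1.02 to 1.04). Of the pair, COL4A1 thus had the lower ratio at each dose, and only COL4A2 was above the control at 1 Gy.

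The share of the pair taken by COL4A1 also moved from library to library. For each COL4A2 UMI there were 0.528 COL4A1 UMIs (0.521 to 0.536) in the control, 0.398 (0.391 to 0.405) at 10 mGy, 0.336 (0.330 to 0.343) at 100 mGy and 0.460 (0.453 to 0.467) at 1 Gy. No pair of these counting intervals overlapped. A ratio of 2 genes within a library is unchanged by a factor that multiplies the whole library, but not by scaling each barcode. Leaving out low-UMI barcodes left the values at 0.526, 0.394, 0.334 and 0.456. A ratio of UMIs also reflects how well each 3' end was captured, so it is read across libraries and not as the ratio of chains in the trimer.

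The laminin chains LAMB1 and LAMC1 belong to the widespread laminins that polymerize under most epithelia. LAMB1 had 56.5, 30.7, 24.6 and 48.9 CPM in the control, 10 mGy, 100 mGy and 1 Gy libraries. LAMC1, the gamma chain that most laminins share, was at 168, 91.7, 72.8 and 167 CPM. At 10 mGy the control ratio came to 0.544 (0.529 to 0.559) for LAMB1 and 0.545 (0.536 to 0.553) for LAMC1. At 100 mGy it was 0.435 (0.422 to 0.449) and 0.433 (0.425 to 0.440). At these doses the pair stayed within each other's counting intervals, and both genes were lowest at 100 mGy. The 1 Gy library parted them, with a ratio of 0.865 (0.843 to 0.888) for LAMB1, the lowest of the 9 genes at that dose, and of 0.991 (0.976 to 1.01) for LAMC1. Accordingly, there were 0.336, 0.335 and 0.338 LAMB1 UMIs per LAMC1 UMI in the control, 10 mGy and 100 mGy libraries, but 0.293 (0.287 to 0.300) at 1 Gy.

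LAMB3 encodes the beta chain of the laminin that anchors epithelial cells through hemidesmosomes, which also holds the LAMA3 chain. Its levels were 21.2, 8.42, 7.49 and 19.3 CPM in the control, 10 mGy, 100 mGy and 1 Gy libraries. The 3 irradiated libraries, in order of dose, had ratios of 0.397 (0.378 to 0.418), 0.354 (0.335 to 0.374) and 0.909 (0.871 to 0.949). The ratios at 10 mGy and 100 mGy were the lowest of the 9 genes, and 0.588% and 0.682% of all genes had a lower one. Between the beta chains, there were 2.67 LAMB1 UMIs per LAMB3 UMI in the control (2.58 to 2.76), 3.65 at 10 mGy (3.49 to 3.82), 3.28 at 100 mGy (3.11 to 3.46) and 2.54 at 1 Gy (2.45 to 2.63). The low-dose intervals lay above the other 2.

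**Figure D2:**
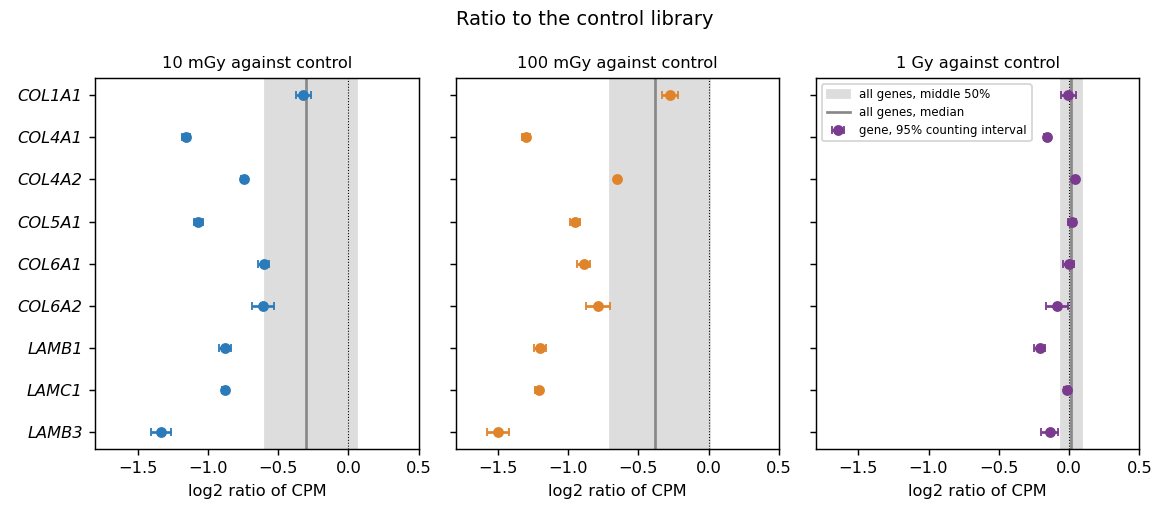
Log2 ratio of CPM to the control library (horizontal axes) for the 9 genes at each dose, with 95% counting intervals, beside the median of all 8507 genes (line) and their middle 50% (grey band). At 10 mGy and 100 mGy LAMB3 and COL4A1 lie farthest below the band and COL1A1 lies close to the median of all genes. At 1 Gy all 9 lie near 0, with LAMB1, COL4A1, LAMB3 and COL6A2 below the narrower band of that dose.

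COL5A1, the alpha-1 chain of type V collagen that helps start collagen fibrils, had 79.0, 37.7, 40.9 and 80.1 CPM in the control, 10 mGy, 100 mGy and 1 Gy libraries. By dose, its ratios were 0.477 (0.466 to 0.489), 0.518 (0.505 to 0.531) and 1.01 (0.993 to 1.04). The control and 1 Gy libraries did not differ beyond counting error, and the 100 mGy library was slightly above the 10 mGy one.

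Type VI collagen forms beaded microfilaments close to basement membranes, in units of its alpha-1, alpha-2 and a longer alpha-3 chain. COL6A1 was at 50.3, 33.1, 27.1 and 50.1 CPM in the control, 10 mGy, 100 mGy and 1 Gy libraries. COL6A2 was at 12.9, 8.49, 7.48 and 12.2 CPM. Both genes were lowest at 100 mGy, with ratios of 0.539 (0.523 to 0.556) for COL6A1 and 0.578 (0.545 to 0.614) for COL6A2, after 0.659 (0.641 to 0.677) and 0.657 (0.622 to 0.694) at 10 mGy. At 1 Gy the ratios were 0.998 (0.971 to 1.02) and 0.942 (0.892 to 0.994). There were 3.89 COL6A1 UMIs per COL6A2 UMI in the control (3.73 to 4.05), 3.90 at 10 mGy (3.73 to 4.08), 3.63 at 100 mGy (3.44 to 3.82) and 4.11 at 1 Gy (3.94 to 4.30). These intervals overlapped for every pair of libraries except 100 mGy and 1 Gy, whereas those of the type IV pair never did.

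**Figure D3:**
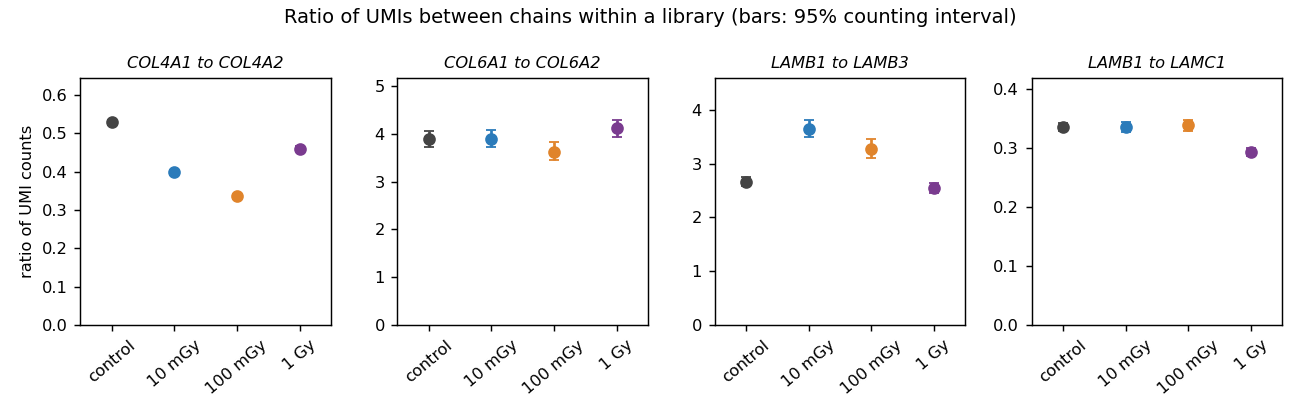
Number of UMIs of the first gene per UMI of the second gene (vertical axes, from 0) in the 4 libraries, for 4 pairs of chains, with 95% counting intervals. COL4A1 per COL4A2 is lowest at 100 mGy, LAMB1 per LAMB3 is highest at 10 mGy, and LAMB1 per LAMC1 is flat except at 1 Gy.

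COL1A1, the main chain of type I collagen, was the member nearest to the control at 10 mGy and 100 mGy. Its levels in the 4 libraries were 25.6, 20.5, 21.1 and 25.5 CPM. The ratios were 0.801 (0.772 to 0.831), 0.826 (0.795 to 0.859) and 0.996 (0.959 to 1.03). The first 2 values lie only just past the 1.2-fold limit, and 48.7% and 57.9% of all genes had a lower ratio. When libraries were scaled by the median of gene ratios instead of by total UMIs, COL1A1 stood at 0.987 and 1.08 and no longer passed, while the other 8 genes still did at both doses. COL1A1 also missed the limit at both doses when ribosomal protein and mitochondrial genes were left out of the totals, and at 100 mGy after thinning, at 0.846.

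The control barcodes were the deepest, with a median of 21752 UMIs outside low-UMI barcodes against 16426 at 1 Gy. In UMIs per barcode without scaling, 9 of 9 members were at least 1.2-fold lower at 1 Gy than in the control, from 0.665 for LAMB1 to 0.793 for COL4A2, as were 7061 of 8507 genes (83.0%). The nearness of the 1 Gy library to the control therefore holds for shares of a library's UMIs and not for UMIs per barcode.

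The low-dose libraries differed less from each other. At 100 mGy against 10 mGy, 3 of 9 members were at least 1.2-fold lower and 0 were higher, beside 12.7% and 1.35% of all genes. The 3 were LAMC1 at 0.794 (0.779 to 0.809), LAMB1 at 0.800 (0.774 to 0.827) and COL6A1 at 0.819 (0.794 to 0.845). LAMB3, COL6A2 and COL4A1 had ratios of 0.890, 0.881 and 0.903, with intervals below 1. Ratios above 1 were found for COL5A1 at 1.09 (1.06 to 1.12) and COL4A2 at 1.07 (1.05 to 1.08). COL1A1, at 1.03 (0.993 to 1.07), did not differ beyond counting error. By their intervals, 6 of the 9 genes were thus below the 10 mGy library and 2 above it, with only 3 past the limit.

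None of these 3 calls between the low doses held under median ratio scaling, where 0 of 9 members were 1.2-fold lower. LAMC1 and LAMB1 then stood at 0.841 and 0.847, and COL6A1 at 0.868. The order of the members was the same, since this scaling multiplies every gene of a library alike.

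Genes with long transcripts had lower ratios in the low-dose libraries, and several members are long. Exonic length, from GENCODE 29, was known for 99.9% of the genes, which were split into 10 groups of equal size by length. COL4A1 (14738 bases), COL4A2 (19293 bases) and COL5A1 (11189 bases) fell in the longest of these groups, which had median log2 ratios of -0.68 for 10 mGy and -0.80 for 100 mGy. COL4A2 was close to its group, at -0.75 and -0.65. COL4A1 was lower, at -1.16 and -1.30, with 5.79% and 6.61% of its group below it. COL5A1 was at -1.07 and -0.95, with 9.21% and 32.0% of the group below it.

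The other genes were shorter. LAMB1 (8140 bases) and LAMC1 (8406 bases) were in the eighth length group, with medians of -0.49 and -0.59 for the low doses. Both were below it, LAMB1 at -0.88 and -1.20 and LAMC1 at -0.88 and -1.21. COL6A1 (5343 bases) and COL6A2 (5386 bases) were in the sixth, with medians of -0.36 and -0.44, and stood at -0.60 and -0.61 at 10 mGy and at -0.89 and -0.79 at 100 mGy. LAMB3 is the shortest of the 9 (4688 bases), and its log2 ratios of -1.33 and -1.50 stood against group medians of -0.30 and -0.36, with 0.118% and 0.236% of its 848 genes of like length below it. COL1A1 (9819 bases) was above the median of the ninth group, -0.54 and -0.66, by its own values of -0.32 and -0.28. In all, 8 of 9 members were below the median of their length group at 10 mGy and 7 at 100 mGy, and 7 were below it at 1 Gy, where these group medians were between 0.01 and 0.03. The part of transcript length in the ratios was not tested beyond this comparison.

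**Figure D4:**
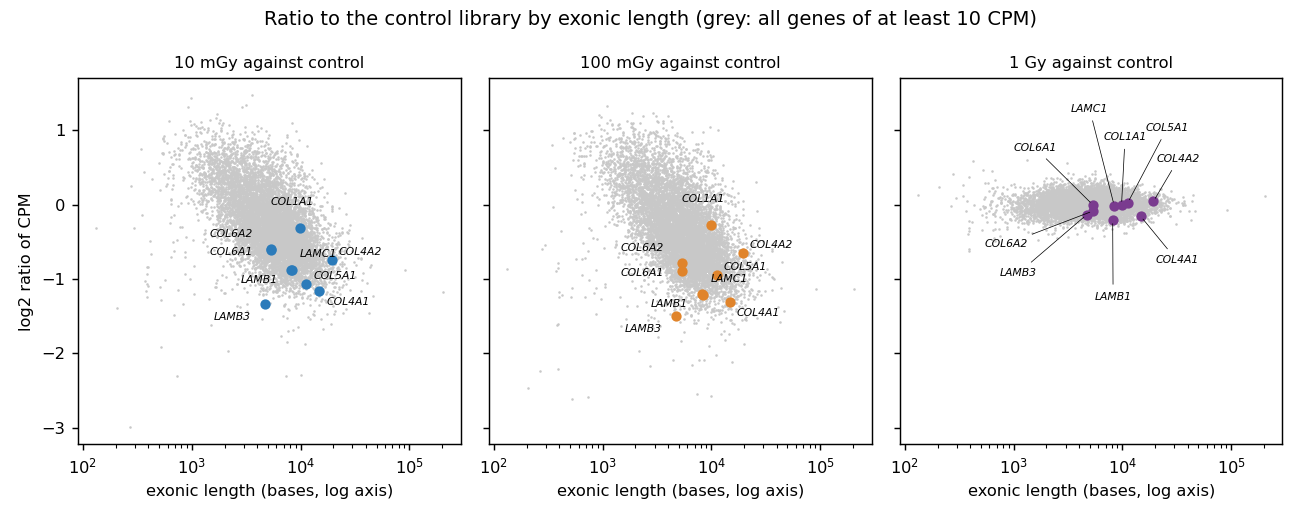
Log2 ratio of CPM to the control (vertical axes) against exonic length in bases (horizontal log axes) for all genes of at least 10 CPM (grey) and the 9 named genes (coloured), at each dose. At 10 mGy and 100 mGy the cloud slopes downward with length, LAMB3 lies under it at its length and COL1A1 over the middle of it, and at 1 Gy the cloud is flat.

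Per barcode, the same order was seen in how many barcodes held a UMI of a gene. To compare libraries at 1 depth, each barcode was thinned to 5000 UMIs, which left 9060, 12561, 14271 and 11530 barcodes in the control, 10 mGy, 100 mGy and 1 Gy libraries and left out 2051, 8953, 5679 and 3980. The exact (Clopper-Pearson) intervals of the shares reached at most 1.03 percentage points to either side. COL4A2 was then found in 71.5%, 55.1%, 57.1% and 73.1% of barcodes. COL4A1 was found in 49.5%, 27.6%, 25.4% and 46.6%. LAMC1 was found in 55.3%, 36.1%, 30.2% and 56.1%.

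The less abundant laminin chains showed the same order. LAMB1 was found in 23.7%, 14.7%, 11.8% and 22.1% of thinned barcodes and LAMB3 in 9.53%, 4.27%, 3.83% and 9.51%. COL1A1 varied least, at 10.5%, 9.004%, 9.02% and 9.98%. All cells are of 1 line, so no cell type lacking these genes was at hand to give the share that free RNA alone would give. In the low-UMI barcodes, where free RNA weighs most, COL4A2 was at 243, 91.7, 116 and 183 CPM and COL4A1 at 159, 48.1, 56.5 and 124 CPM, so both were again lower in the low-dose libraries. COL1A1 did not show this order there, at 24.6, 15.0, 19.8 and 17.5 CPM, with 100 mGy above 1 Gy. These levels rest on only 113, 231, 120 and 99 UMIs. Whether 100 mGy and 1 Gy differed there beyond counting error was not tested.

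COL1A1 stood apart in how unevenly its UMIs were spread over barcodes. In thinned barcodes the variance of its UMIs was 1.58, 1.44, 1.55 and 1.68 times the mean in the control, 10 mGy, 100 mGy and 1 Gy libraries, where counting error alone gives 1. Over 2580 genes with a mean level within 1.5-fold of that of COL1A1 the median was 1.01 in each library, and at least 99.8% of them were below COL1A1. The spread was found at all 4 doses, and its order did not follow the dose.

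In counts, 60 of 9060 thinned control barcodes (0.662%, 0.506% to 0.852%) held 3 or more COL1A1 UMIs, with up to 8 in 1 barcode. For LAMB3, found in nearly as many control barcodes, only 1 barcode held 3 or more (0.011%, 0.00028% to 0.061%). At 10 mGy, 100 mGy and 1 Gy, 53, 81 and 74 barcodes held 3 or more COL1A1 UMIs, or 0.422%, 0.568% and 0.642%. The other 8 genes had ratios of variance to mean between 0.994 and 1.18, the highest for COL4A1 in the control. COL4A1 and COL4A2 were at 1.18 and 1.15 in the control and at 1.15 and 1.16 at 1 Gy, and at 1.07 to 1.09 in the low-dose libraries, where their levels were lower.

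**Figure D5:**
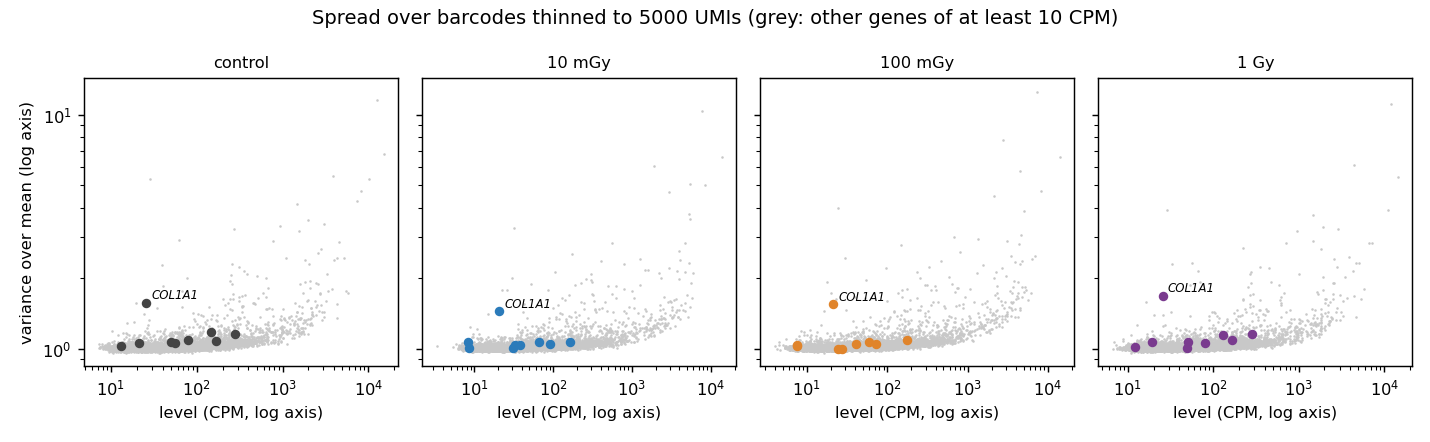
Variance over mean of the UMIs per barcode after thinning to 5000 UMIs (vertical log axes) against level in CPM (horizontal log axes) for genes of at least 10 CPM (grey) and the 9 named genes (coloured). COL1A1 lies well above genes of its level in all 4 libraries, and the other 8 lie within or near the cloud.

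Dispersion, the standard deviation over the mean across barcodes scaled to 10000 UMIs, was not lower at 100 mGy than at 10 mGy for any of the 9 genes (0 of 9), beside 1.41% of all genes. It depends strongly on depth and level, and after thinning to 5000 UMIs it was lower for 2 of 9 members and for 31.1% of all genes.

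Across barcodes the members hardly varied together. Pearson's r of log2 counts in thinned barcodes was highest for COL4A1 with COL4A2, at 0.066 to 0.100 over the 4 libraries, and was below 0.06 in every library for the other pairs. Unthinned and with low-UMI barcodes left out, the type IV pair reached 0.157 to 0.310. Why these values were higher than in thinned barcodes was not tested. The genes most like each member over barcodes, by r averaged over the 4 libraries among 8506 genes, were FN1 (fibronectin) for COL4A1 at 0.105 and for COL5A1 at 0.091, MYH9 (non-muscle myosin) for COL4A2 at 0.120, IGFBP4 for COL1A1 at 0.070, and MT-ND2 for COL6A1 at 0.060. MYH9, TPM1 and MALAT1 also ranked in the first 3 of the type IV genes, KRT7, RPL23 and THBS1 in those of the fibrillar genes, and MT-ND3 and MT-ATP6 in those of the type VI genes. For LAMB1 and LAMC1 the first was MALAT1, followed by NEAT1, MYH9 or FN1, and for LAMB3 it was G0S2, with THBS1 and KRT7 next. Correlations this weak in sparse counts describe the barcodes and are no finding about shared control.

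Several partners that the member chains are known to assemble with were nearly undetected. COL1A2, the second chain of the common type I collagen, was at 0.113 CPM in the control (24 UMIs) against 5444 UMIs of COL1A1, and stayed at or under that level in the other libraries. COL6A3, the alpha-3 chain of type VI collagen, was at 0.183, 0.042, 0.074 and 0.255 CPM. COL3A1, the chain of type III collagen and not a partner in these trimers, was at 0.029 to 0.104 CPM. COL5A2, the usual partner of COL5A1, was well detected, at 61.8, 46.9, 46.5 and 61.9 CPM in the control, 10 mGy, 100 mGy and 1 Gy libraries. Its ratio at 10 mGy was 0.760, against 0.477 for COL5A1.

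Laminin alpha chains were all under the floor. LAMA3, the alpha chain that goes with LAMB3, was highest, at 8.23, 6.34, 4.43 and 7.42 CPM. LAMA1 was at 4.01, 3.34, 1.72 and 4.28 CPM and LAMA5 at 2.99, 1.66, 2.23 and 3.34 CPM. LAMA4 was at 1.07 to 2.01 CPM and LAMA2 at 0.192 to 0.212 CPM. A low level of an mRNA says nothing of the protein.

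LAMB2 was at 24.8, 19.1, 16.1 and 25.9 CPM, and LAMB4 and LAMC3 were under 0.2 CPM. Of the other type IV chains, COL4A5 was at 14.7, 10.96, 10.3 and 14.5 CPM and COL4A6 at 5.996, 3.83, 3.59 and 5.85 CPM. COL4A4 was at 1.89 to 2.30 CPM, and COL4A3 and COL5A3 were at 0.182 to 0.283 CPM. COL5A2, COL4A5 and LAMB2 reached the floor, and each was at least 1.2-fold lower at both 10 mGy and 100 mGy, beside 53.0% and 58.9% of all genes. Under median ratio scaling none of these 3 passed, with ratios of 0.917 to 0.947 at 10 mGy and of 0.845 to 0.983 at 100 mGy. At 1 Gy 0 of them passed in either direction.

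Other matrix proteins had like counts. This list and the lists below were also chosen with earlier results of these data known. Of 10 tested, 8 were lower at 10 mGy and 8 at 100 mGy, beside 53.0% and 58.9% of all genes. FN1, the fibronectin on which collagens are laid down, had 1546, 623, 640.1 and 1466 CPM in the 4 libraries, with ratios of 0.403 and 0.414 at the low doses, near those of COL4A1. TNC (tenascin C) had ratios of 0.682 and 0.510, and SPARC, a collagen-binding protein, of 0.984 and 0.805.

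Among enzymes that fold and modify collagen chains, 10 of 14 tested were lower at 10 mGy and 12 of 14 at 100 mGy, against the same 53.0% and 58.9% of all genes. PLOD2, a lysyl hydroxylase, had ratios of 0.601 and 0.590 and P4HB, a subunit of prolyl hydroxylase, of 0.775 and 0.744. PPIB, a proline isomerase of the endoplasmic reticulum, was near the control at 1.01 and 0.951. In secretion and maturation, 6 of 10 tested genes were lower at 10 mGy, near the 53.0% of all genes, and 9 of 10 at 100 mGy, against 58.9%. LOX, which cross-links collagen, stood at 0.590 and 0.513, SEC31A of the coat that carries collagen from the endoplasmic reticulum at 0.647 and 0.702, and LOXL2 at 0.862 and 0.801.

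Of 7 receptor genes tested, 5 were lower at each of the 2 low doses, against 53.0% and 58.9% of all genes. ITGB1, the integrin beta chain shared by most matrix receptors, had ratios of 0.781 and 0.700, and ITGA3, the alpha chain of a laminin receptor, of 0.729 and 0.562. CD151, a tetraspanin that binds laminin receptors, was slightly above the control, at 1.13 and 1.07. Of 4 tested genes that degrade matrix or inhibit its breakdown, 2 were lower and 1 higher at 10 mGy, and 3 were lower and 1 higher at 100 mGy. Among all genes, 53.0% were lower and 15.4% higher at 10 mGy, and 58.9% lower and 14.0% higher at 100 mGy. MMP14, a membrane-bound metalloproteinase, was at 29.1, 10.1, 6.83 and 28.8 CPM, with ratios of 0.345 and 0.234. TIMP1, a metalloproteinase inhibitor, was at 149, 282, 268 and 143 CPM, with ratios of 1.89 and 1.80, whereas TIMP2 had 0.968 and 0.780. At 1 Gy 0 genes of these 5 lists passed 1.2-fold in either direction. Under median ratio scaling, where 27.3% and 29.01% of all genes were lower, the counts of lower genes at 10 mGy and 100 mGy became 5 and 6 of 10 for other matrix proteins, 3 and 3 of 14 for folding enzymes, 5 and 4 of 10 for secretion and maturation, 1 and 2 of 7 for receptors, and 2 and 2 of 4 for matrix breakdown. The counts of higher genes then became 2 and 0, 2 and 1, 1 and 1, 1 and 1, and 1 and 1 in the same order of lists.

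The labelled cell type was checked against marker genes. Of 8 epithelial markers 4 were above 10 CPM in all libraries (KRT7, KRT8, KRT17 and KRT18), with a summed level of all 8 of 1123 to 1244 CPM, but EPCAM was at 0.902 to 1.17 CPM and CDH1 and KRT5 were under 0.05 CPM. All 5 mesenchymal genes (VIM, CDH2, FN1, ZEB1 and SNAI2) were above 10 CPM, with a summed level of 4510, 3334, 3168 and 4079 CPM in the 4 libraries. Much of the difference at the low doses is FN1 itself. At each low dose 4 of these 5 genes were at least 1.2-fold lower and 0 higher, beside 53.0% and 58.9% of all genes lower. Under median ratio scaling 3 of the 5 were lower. VIM was at 2344 CPM at 1 Gy against 2702 CPM in the control. The 7 fibroblast markers summed to 7.69 to 9.58 CPM, nearly all of it PDGFRB, and the defining genes COL1A2, COL3A1, DCN and LUM were at 0.113 CPM or less. Endothelial, smooth muscle and red blood cell markers summed to at most 3.59 CPM, and of 5 immune markers CD68 alone passed 1 CPM.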

How the data were processed

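Single-cell 3' libraries of BEAS-2B cells were measured for 4 doses, 1 library each, grouped by the labels. The deposited values are raw UMI counts for each gene in each barcode. The file header names Cell Ranger 7.0.1, and the submitters' processing notes name Cell Ranger, STAR and GRCh37. Neither the annotation nor the handling of intronic reads is given in the sources used here. All deposited barcodes were used, and doublets were kept. UMIs were summed per library and divided by its total (CPM). Genes with a mean of at least 10 CPM were compared, and 1.2-fold was the limit for a call. Intervals are exact Poisson intervals for levels and exact conditional intervals for ratios, at 95%, and totals of 211752280 UMIs or more per library make them narrow.

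Alternatives were another scaling (median of gene ratios, total without ribosomal protein and mitochondrial genes, mean of barcodes scaled to 10000 UMIs, thinning to 5000 UMIs, unscaled UMIs). Others were leaving out low-UMI or very high-UMI barcodes, a filter on barcodes (200 genes or more, mitochondrial UMIs of 20% or less), floors of 1 and 100 CPM, and a limit of 1.5-fold. Low-UMI barcodes were under the library median divided by 3. Very high-UMI barcodes were over 3 times the median of the barcodes that were not low-UMI. The 9 members and the role lists were chosen with earlier results of these data known. Genes named are all members, all partner chains, the 3 most abundant genes of each other role list, and the 3 genes most correlated with each member. A few of these genes are left out of the text. Python 3.11.15 with numpy 2.4.6, scipy 1.17.1 and pandas 2.3.3 was used, and the scripts were tested on simulated data.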

Additional observations from a re-analysis of the deposited data

How the results depend on the processing

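No paired analysis was possible because each dose has 1 library. The 9 members lower at 10 mGy and at 100 mGy became 8 at both doses under median ratio scaling and with totals that leave out ribosomal protein and mitochondrial genes. They also became 8 at both doses at 1.5-fold, 8 at 100 mGy after thinning, and 3 at both doses with a floor of 100 CPM, which fewer members reach. Median ratio scaling also turned COL1A1 at 100 mGy to 1.08, and split the calls over all genes into 2600 higher and 2319 lower at 10 mGy and 2707 higher and 2468 lower at 100 mGy, in place of 1313 and 4507, and 1190 and 5011. The 3 members lower at 100 mGy than at 10 mGy became 1 with scaled barcodes, 0 under median ratio scaling and 2 without ribosomal protein and mitochondrial genes. They became 0 at 1.5-fold, 1 with a floor of 100 CPM and 9 with unscaled UMIs per barcode. Unscaled, 9 members were also lower at 1 Gy. The 0 members with lower dispersion at 100 mGy became 2 after thinning to 5000 UMIs and 4 with unscaled UMIs. Leaving out low-UMI barcodes moved 2 of 36 member ratios beyond their counting interval, and the gene filter and the removal of very high-UMI barcodes moved 0 of 36. In contrast, 12 moved after thinning, 21 without ribosomal protein and mitochondrial genes, 22 with scaled barcodes, 28 under median ratio scaling (beside COL1A1 at 100 mGy) and 36 unscaled. Some moved ratios also crossed 1. With scaled barcodes, COL4A2 at 1 Gy fell to 0.963, and COL4A1 at 100 mGy against 10 mGy rose to 1.005. Unscaled, COL4A2 and COL5A1 at 100 mGy against 10 mGy fell to 0.807 and 0.825. Apart from unscaled counts, no alternative gave a call at 1 Gy. No comparison has replicates, and values per barcode also depend on depth.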
